A study of Homo sapiens with 6 samples.

Results

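The genes described here are 43 regulators of the human cell division cycle: cyclins, cyclin-dependent kinases (CDKs), CDK inhibitors, the phosphatases and kinases that act on CDKs, ubiquitin ligase components, pocket proteins and E2F transcription factors. They were listed by name, with earlier results of these data known. A gene was read from the probe set whose only annotated symbol it is, and from the brightest such probe set where there were several. This gave values for 42 of the 43 genes, among 18417 genes in all, and CDKN2C is not analysed here. The irradiated cells were RPMI 8226, an established human multiple myeloma line derived from malignant plasma cells, given 6 Gy of carbon ions, which are heavy charged particles that ionise densely along their tracks. The unirradiated cells were RPMI 8226 given 0 Gy. Both groups were grown in RPMI 1640 medium with fetal calf serum, and total RNA was taken 1 day after irradiation and measured on 1-colour arrays, 3 per dose. A single line was used, and the labels number the samples 1 to 3 without saying whether these were separate cultures. The p-values below therefore describe the spread among these samples only, which may be technical.

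Values are the authors' deposited intensities, read as log2, so a difference of 1 is a 2-fold change. Array medians were 5.66 to 5.72 for irradiated cells and 5.64 to 5.67 for unirradiated cells. Plasma cell markers fitted the labelled cell type, with 8 of 9 (all but SLAMF7) above the upper quartile of all probe sets on all 3 unirradiated arrays. Of the 9, SLAMF7 rose (0.55), and CD38 (-0.42) and XBP1 (-0.23) fell, the call of CD38 ending without unirradiated replicate 2 (0.055) and that of XBP1 without any 1 array except irradiated replicate 3 (up to 0.117). A place above that quartile was held by 0 of 5 T cell markers, 0 of 4 myeloid markers and 2 of 5 fibroblast and epithelial markers, namely EPCAM and KRT18. The mean log2 value of these 14 markers of other cell types was 5.80 to 5.89 on the irradiated arrays, against 5.61 to 5.73 on the unirradiated arrays, and ITGAM (0.52) and COL1A1 (0.23) rose while EPCAM (-0.39) fell. Their part in the results below was not tested. All these marker calls stand beside 14.5% of all genes that passed the threshold given below, and the marker lists were not tested as sets. The adjusted p of COL1A1 was above 0.05 without any 1 array (0.0576 to 0.113) and that of EPCAM without unirradiated replicate 2 or 3 (up to 0.0541).

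In a dividing cell, D-type cyclins with CDK4 and CDK6, and then E-type cyclins with CDK2, phosphorylate the pocket proteins RB1, RBL1 and RBL2. This frees E2F factors to drive the genes of DNA synthesis, while CDK inhibitors of the CIP/KIP and INK4 families oppose these kinases. Entry into mitosis rests on CDK1 with cyclins A and B, which WEE1 and PKMYT1 hold back and CDC25 phosphatases release, and the anaphase-promoting complex (APC/C) ends mitosis by marking cyclins for destruction. Damaged DNA halts this cycle in G1 or G2, largely through changes in the proteins' phosphorylation and stability, which arrays do not measure.

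After carbon ions, 9 of the 42 regulators rose and 6 fell, all by less than 2-fold. The phosphatase gene CDC25A rose most, 1.50-fold, and cyclin E2 (CCNE2), the D-type cyclins CCND3 and CCND1, RB1 and the INK4 inhibitor gene CDKN2B also rose. Cyclin G2 (CCNG2) fell most, 1.62-fold, together with the CDK inhibitor gene CDKN1B, the pocket protein gene RBL2, E2F4, E2F7 and SKP2. The mitotic genes CKS2, CDKN3 and CDC20 rose by 0.24 to 0.31 on the log2 scale, whereas cyclins A2, B1, B2 and F, CDK1 and the other CDK genes did not pass. "Rose" and "fell" stand for genes whose adjusted p in limma, a linear model fitted over all 18417 genes with Benjamini-Hochberg adjustment, was under 0.05.

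The 15 regulators that passed are 35.7% of the 42. Over all genes tested 14.5% passed, 6.35% higher and 8.18% lower, and among the 8705 genes no dimmer than the dimmest and no brighter than the brightest of these regulators 22.5% passed (8.70% higher and 13.8% lower). For 22 of the 42, or 52.4%, all irradiated values lay on one side of all unirradiated values, against 34.7% of all genes and 47.2% of those 8705. The median log2 difference of the 42 was 0.019, beside 0.039 over all genes. Of the 15 calls, 6 held under all 13 alternative settings tried: CDC25A, CCNE2, CDKN2B, CCNG2, CDKN1B and RBL2. The number that rose was 4 without irradiated replicate 1, irradiated replicate 2, unirradiated replicate 1 or unirradiated replicate 2, and 3 without unirradiated replicate 3, and the number that fell was 3 without unirradiated replicate 2. With array medians subtracted, 5 rose and 7 fell, so that 41.7% of the calls were higher, against 60.0% without that step.

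**Figure D1:**
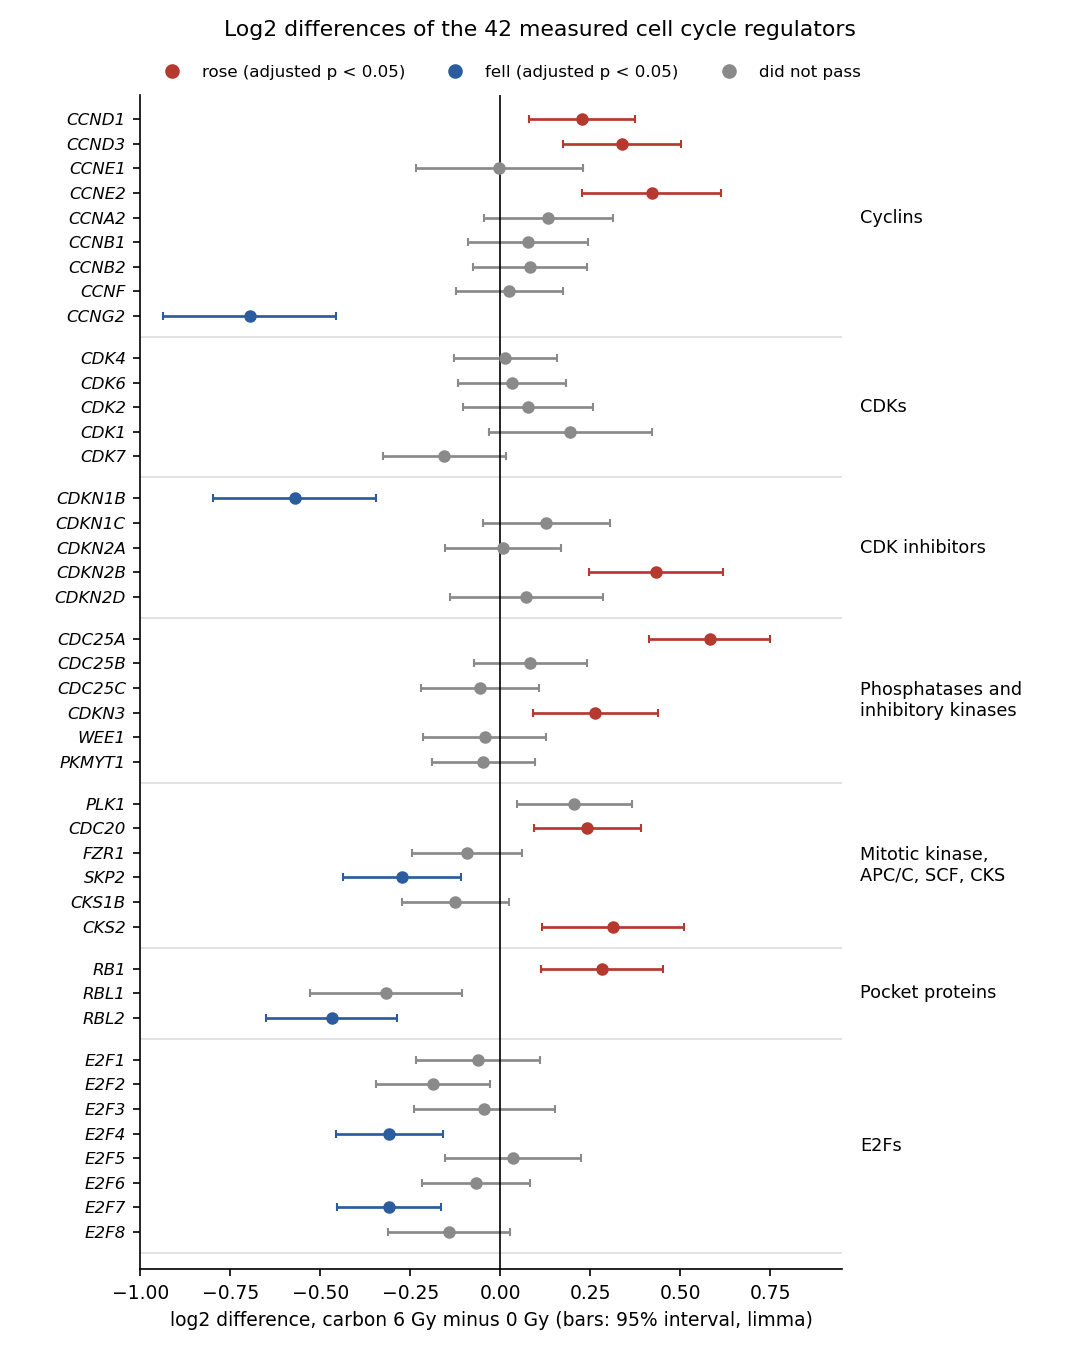
Log2 difference of each of the 42 measured regulators, irradiated minus unirradiated, on the horizontal axis, with its 95% interval from limma as a bar, grouped by role down the page; red genes rose, blue genes fell and grey genes did not pass. CCNG2 lies farthest to the left at -0.70 and CDC25A farthest to the right at 0.58, and none of the 5 CDK genes is coloured. Over all genes tested, 14.5% passed.

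Regulators of the G1/S transition moved in both directions, and those of G2 and mitosis that passed with their brightest probe sets all rose. With the mean of all probe sets in place of the brightest, WEE1 of the G2/M class fell. Of 26 measured G1/S regulators, 6 rose and 5 fell, with a median log2 difference of 0.0023 (-0.028 with array medians subtracted). Of 14 G2/M regulators, 3 rose and 0 fell in limma (4 higher and 0 lower at an unadjusted p under 0.05), with a median of 0.083, and 10 of the 14 had a positive difference. So did 13 of 26 G1/S regulators, and 11008 of 18417 genes overall. Groups did not overlap for 6 of the 14 G2/M regulators (42.9%, against 34.7% of all genes), 4 being higher and 2 lower. Of G1/S regulators 42.3% passed, and of G2/M regulators 21.4%. Among the 8705 genes within the brightness range of the regulators 22.5% passed, near the G2/M share, and over all genes 14.5%. The difference between the classes was not tested. The 3 G2/M calls are slight: 0 of them passed without irradiated replicate 1 or 2, without any unirradiated array or with array medians subtracted, and 2 without irradiated replicate 3. In G1/S, 3 genes rose and 6 fell without unirradiated replicate 3, 3 fell without unirradiated replicate 1 and 2 fell without unirradiated replicate 2. Because the arrays average over all cells, a changed share of cells in a phase and a changed level per cell cannot be told apart.

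**Figure D2:**
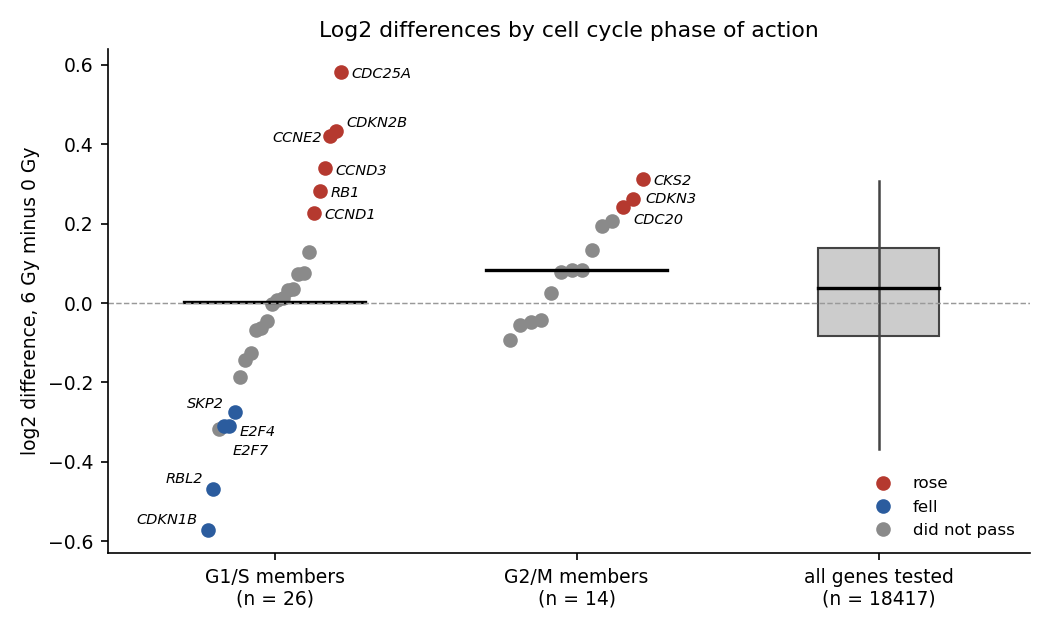
Log2 differences, irradiated minus unirradiated, of the 26 G1/S and 14 G2/M regulators (points, with the genes that passed named, the black line being the median), beside all 18417 genes (box from -0.084 to 0.14, the quartiles, and line from -0.37 to 0.31, the 5% and 95% points). G1/S genes reach from -0.57 to 0.58, G2/M genes from -0.092 to 0.31; CCNG2 and CDK7, which belong to neither class, are not drawn.

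Among the cyclins of G1, CCND1 and CCND3 of the 3 D-type genes and 1 of 2 E-type genes rose. Beside these stand 6.35% of all genes and 8.70% of the 8705 genes of like brightness that rose. Groups this small were not tested against those shares. CCNE2, which encodes cyclin E2, an activator of CDK2 at the start of DNA synthesis, was at 9.16, 9.26 and 8.94 on the irradiated arrays, against 8.72, 8.68 and 8.71 on the unirradiated arrays. Every irradiated array lay above every unirradiated one, with irradiated replicate 3 nearest to them, and the difference was 0.42 ± 0.086 (SE), or 1.34-fold (limma adjusted p 0.011). CCNE1, encoding the other E-type cyclin, averaged 7.18 ± 0.094 in irradiated cells and 7.19 ± 0.20 in unirradiated cells (mean ± SD, n = 3 each). Its groups overlapped and its difference of -0.0026 had a 95% interval from -0.23 to 0.23. CCND3, encoding a D-type cyclin that partners CDK4 and CDK6, was at 9.49, 9.55 and 9.47 on the irradiated arrays, against 9.26, 9.17 and 9.07 on the unirradiated arrays. It rose 1.26-fold, by 0.34 ± 0.073 (SE) on the log2 scale (limma adjusted p 0.0141, and 0.0503 without unirradiated replicate 3). CCND1, encoding another D-type cyclin, was at 9.07, 9.04 and 8.99 on the irradiated arrays, against 8.86, 8.80 and 8.77 on the unirradiated arrays. The groups were close but did not overlap, and its rise of 0.23 (adjusted p 0.0469 in limma) was lost without any 1 array, with adjusted p between 0.0575 and 0.132. CCND2, the remaining D-type cyclin gene, which MAF drives in myelomas with a MAF translocation, was read beside these and averaged 11.75 ± 0.059 in irradiated cells and 11.61 ± 0.020 in unirradiated cells (mean ± SD, n = 3 each). It did not pass (difference 0.14, 95% interval -0.0083 to 0.29), although its 3 irradiated values all lay above the unirradiated ones.

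None of the 5 CDK genes, which encode the kinases themselves, passed in limma, and at an unadjusted p under 0.05 the count was 0. Over all genes 14.5% passed in limma, and 15.8% lay higher and 14% lower at that unadjusted p. Beside those shares, a count of 0 among 5 genes does not set the CDK genes apart. Their log2 differences ran from -0.16 to 0.19. CDK4 and CDK6, the partners of D-type cyclins, differed by 0.014 and 0.033, with 95% intervals from -0.13 to 0.16 and from -0.12 to 0.18. CDK2, the partner of cyclins E and A, differed by 0.076 (interval -0.11 to 0.26). CDK7, the catalytic subunit of the kinase that activates other CDKs, differed by -0.16 (limma adjusted p 0.205), and both probe sets that name it carried identical values.

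Of the 5 measured CDK inhibitor genes, 1 rose, 1 fell and 3 did not pass. CDKN1B, encoding a CIP/KIP protein that binds and blocks CDK2 complexes and holds cells in quiescence, was at 8.45, 8.68 and 8.37 on the irradiated arrays, against 9.05, 9.23 and 8.93 on the unirradiated arrays. All irradiated values lay below all unirradiated values, and the gene fell 1.49-fold (difference -0.57 ± 0.10 (SE), limma adjusted p 0.00555). CDKN2B, an INK4 inhibitor of CDK4 and CDK6, was at 6.97, 6.91 and 6.90 on the irradiated arrays, against 6.33, 6.52 and 6.62 on the unirradiated arrays. The 3 irradiated values lay within 0.073 of one another and above every unirradiated one, and it rose 1.35-fold (difference 0.43 ± 0.084 (SE), adjusted p 0.00832). Its neighbour in the genome CDKN2A, which encodes an INK4 inhibitor and a p53-stabilising protein from overlapping reading frames, averaged 8.36 ± 0.10 in irradiated cells and 8.35 ± 0.016 in unirradiated cells (mean ± SD, n = 3 each) and did not pass (difference 0.0072, interval -0.15 to 0.17). CDKN2D, another INK4 gene, and CDKN1C, a CIP/KIP gene, differed by 0.072 and 0.13 with adjusted p of 0.651 and 0.312 in limma. CDKN1A, the p53-driven CIP/KIP gene, is not among the 43, and its values of 9.73, 9.77 and 9.47 on the irradiated arrays, against 9.36, 9.60 and 9.46 on the unirradiated arrays overlapped.

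The promoter of CDKN1B is given as that of the inhibitor gene that fell. It is RefSeq's stretch of 250 bases before to 50 bases after the annotated start (chr12:12717118-12717417, + strand, GRCh38.p14), printed along the gene's strand, as are the promoters further on. Capitals mark matches, on either strand, to the CCAAT box (CCAAT, or ATTGG on the other strand), to the cell cycle homology region (CHR; TTTGAA or TTCAAA) and to the E2F forms TTTCCCGC, TTTGGCGC, TTTCGCGC and TTTGCCGC.
CDKN1B: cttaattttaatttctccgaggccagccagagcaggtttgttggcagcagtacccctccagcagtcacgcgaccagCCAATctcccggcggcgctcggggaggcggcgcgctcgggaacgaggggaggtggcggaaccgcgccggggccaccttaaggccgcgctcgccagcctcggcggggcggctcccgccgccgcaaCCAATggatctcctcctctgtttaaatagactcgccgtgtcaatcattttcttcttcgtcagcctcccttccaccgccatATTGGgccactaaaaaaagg
It holds 3 CCAAT matches and no match to the other motifs. Of the 42 genes, 34 have a 300-base entry in that table, among them all 6 that fell and 7 of the 9 that rose. An E2F form was found in 0 of the 6 that fell, 1 of the 7 that rose and 5 of the 21 that did not pass, against 3.33% of 27305 promoters of all genes. These are matches of letters only.

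The pocket proteins, which bind E2Fs and repress their targets, also split. Of the 3 genes, 1 rose and 1 fell. So few cannot be set apart from the 14.5% of all genes, or 22.5% at like brightness, that passed. RBL2, whose product p130 is the main pocket protein of resting cells, was at 8.18, 8.19 and 8.08 on the irradiated arrays, against 8.54, 8.76 and 8.54 on the unirradiated arrays. Its groups were clearly apart, and it fell 1.38-fold with a difference of -0.47 ± 0.081 (SE) (limma adjusted p 0.00492). RB1, the retinoblastoma tumour suppressor gene, was at 10.08, 10.25 and 10.07 on the irradiated arrays, against 9.83, 9.91 and 9.81 on the unirradiated arrays. It rose by 0.28 (adjusted p 0.0342), a call that ended without any 1 array except irradiated replicate 3 (up to 0.102). RBL1, whose product p107 acts in cycling cells, was at 8.04, 8.25 and 8.20 on the irradiated arrays, against 8.47, 8.65 and 8.33 on the unirradiated arrays. Every irradiated value lay below the unirradiated ones, but its difference of -0.32 ± 0.095 (SE) did not pass (limma adjusted p 0.0508). It passed under 6 of the 13 alternative settings, among them without unirradiated replicate 3 (0.036) and with array medians subtracted (0.0231).

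Of the 8 E2F genes, 2 fell and 0 rose in limma (3 lower and 0 higher at an unadjusted p under 0.05), and 7 of the 8 had a negative difference. Over all genes, 14% lay lower and 15.8% higher at that unadjusted p, and 7409 of 18417 differences were negative, while the 25% of E2F genes that passed lies near the 22.5% of the 8705 genes within the brightness range of the regulators. E2F4, a factor that recruits pocket proteins to promoters in resting cells, was at 9.52, 9.42 and 9.40 on the irradiated arrays, against 9.77, 9.76 and 9.73 on the unirradiated arrays. Its difference was -0.31 ± 0.067 (SE) (limma adjusted p 0.014), and the call ended without unirradiated replicate 1 or 2 (0.0557 at most). E2F7, an atypical E2F that represses transcription without a pocket protein, was at 7.70, 7.69 and 7.74 on the irradiated arrays, against 8.03, 8.06 and 7.97 on the unirradiated arrays. The arrays of each group lay close together, and it fell by 0.31 (adjusted p 0.012, and 0.0539 without unirradiated replicate 2). E2F8, the other atypical repressor, did not pass (difference -0.14, adjusted p 0.237), although its groups did not overlap. The activators E2F1 and E2F3 differed by -0.063 and -0.044, with 95% intervals from -0.24 to 0.11 and from -0.24 to 0.15. E2F2, also an activator, was at 9.51, 9.64 and 9.47 on the irradiated arrays, against 9.71, 9.71 and 9.76 on the unirradiated arrays. These groups did not overlap, but its difference of -0.19 did not pass (limma adjusted p 0.108). E2F5, which like E2F4 works with pocket proteins, and E2F6, a repressor that does not bind them, differed by 0.035 and -0.068.

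SKP2, the substrate receptor of the SCF ubiquitin ligase that marks the CDKN1B protein for destruction, was at 9.70, 9.74 and 9.75 on the irradiated arrays, against 10.03, 10.09 and 9.89 on the unirradiated arrays. It fell by 0.27 with non-overlapping groups (limma adjusted p 0.035), and the call ended without any 1 array except unirradiated replicate 3 (up to 0.13). CKS1B, whose small protein lets SKP2 recognise CDKN1B, averaged 12.41 ± 0.060 in irradiated cells and 12.54 ± 0.032 in unirradiated cells (mean ± SD, n = 3 each). It did not pass (difference -0.13, limma adjusted p 0.242), although the groups of its brightest probe set did not overlap. Its 3 probe sets differed by -0.13, -0.14 and -0.10. Since RefSeq lists pseudogene copies of CKS1B, its probe sets may share signal with them.

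**Figure D3:**
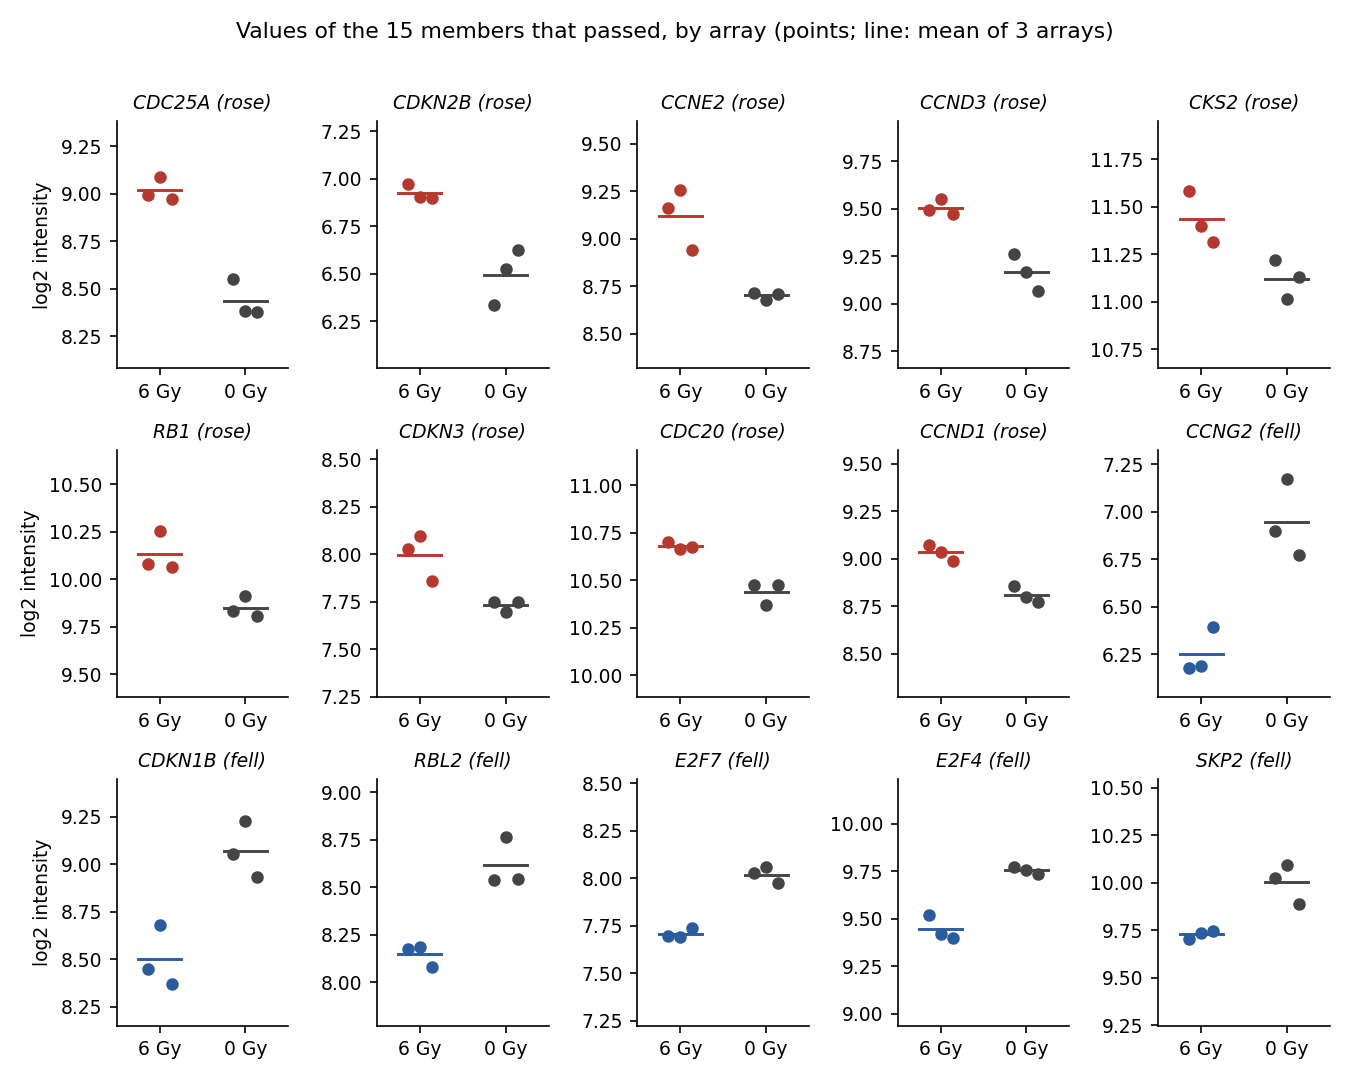
Log2 intensity on each array of the 15 regulators that passed, with the 3 irradiated arrays (6 Gy) left of the 3 unirradiated arrays (0 Gy), the line being the mean of 3 arrays and each panel spanning 1.3 log2 units. In every panel the 2 groups are apart; the means differ most for CCNG2 (-0.70) and CDC25A (0.58) and least for CCND1 (0.23) and CDC20 (0.24).

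Of the CDC25 phosphatases and the kinases WEE1 and PKMYT1, which remove or add the inhibitory phosphates of CDKs, CDC25A rose and the others did not pass with their brightest probe sets. That is 20% of 5 genes, beside 14.5% of all genes and 22.5% of the 8705 genes within the brightness range of the regulators. CDC25A, a phosphatase that activates CDK2 and CDK1 and whose protein is destroyed when checkpoint kinases are active, was at 8.99, 9.09 and 8.97 on the irradiated arrays, against 8.55, 8.38 and 8.38 on the unirradiated arrays. The lowest irradiated value lay 0.42 above the highest unirradiated value, and the difference was 0.58 ± 0.075 (SE), or 1.50-fold (limma adjusted p 0.00108, 7.63e-05 to 0.00757 over the alternative settings). CDC25B and CDC25C, phosphatases that act at mitotic entry, differed by 0.083 and -0.056, with 95% intervals from -0.074 to 0.24 and from -0.22 to 0.11. PKMYT1, a kinase that restrains CDK1 from the endoplasmic reticulum and Golgi, differed by -0.047 (interval -0.19 to 0.10). Its irradiated values all lay just below the unirradiated ones. The promoter of CDC25A (chr3:48188368-48188667, - strand, GRCh38.p14) is given as that of the gene that rose most.
CDC25A: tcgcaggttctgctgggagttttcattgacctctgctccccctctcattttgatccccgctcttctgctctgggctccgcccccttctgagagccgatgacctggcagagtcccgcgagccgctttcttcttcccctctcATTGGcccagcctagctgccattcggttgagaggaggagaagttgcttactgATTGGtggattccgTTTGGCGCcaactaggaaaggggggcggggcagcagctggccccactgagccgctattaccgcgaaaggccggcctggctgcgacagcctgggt
It holds the E2F form TTTGGCGC, found in 4 of the 34 promoters (CDC25A, RBL1, E2F1 and E2F2) and in 0.659% of all promoters, and 2 CCAAT matches. RBL1, E2F1 and E2F2, which share the form, did not pass.

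WEE1, the nuclear kinase that restrains CDK1, gave different answers by probe set. Its brightest probe set, which the annotation ties to the RefSeq transcripts, was at 7.88, 7.84 and 7.99 on the irradiated arrays, against 8.01, 7.84 and 7.99 on the unirradiated arrays, with a difference of -0.044 (limma adjusted p 0.74). A second probe set, tied to a single transcript record, was at 6.37, 6.40 and 6.11 on the irradiated arrays, against 6.92, 6.95 and 6.77 on the unirradiated arrays. It fell by 0.59, with an adjusted p of 0.00326 when all probe sets were tested. The remaining, dim probe set, tied to the same record, differed by -0.40 (adjusted p 0.111 in limma). With the mean of the 3 probe sets in place of the brightest, WEE1 differed by -0.34 and passed (limma adjusted p 0.0131).

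**Figure D4:**
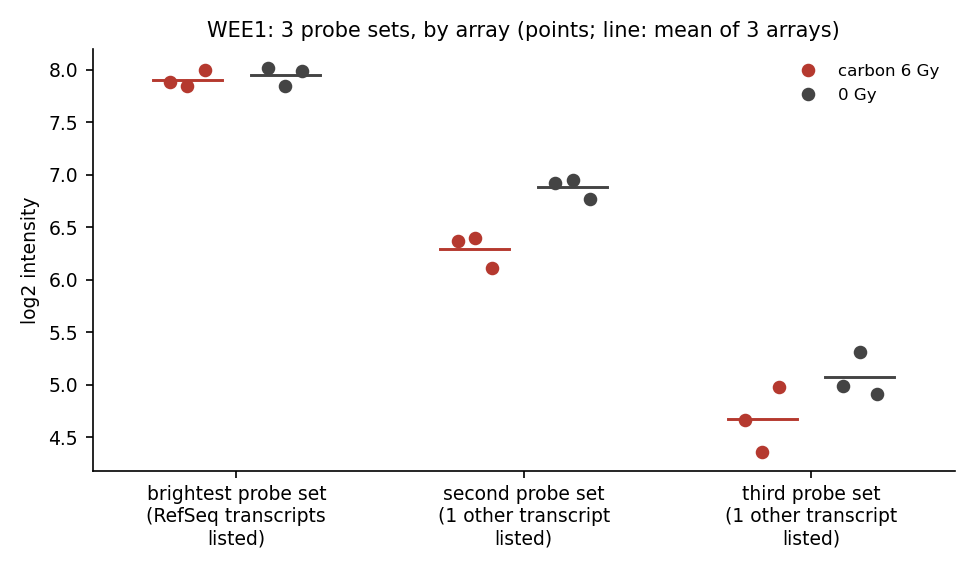
Log2 intensity of the 3 WEE1 probe sets on each array, red for irradiated and grey for unirradiated cells, the line being the mean of 3 arrays. The groups overlap for the brightest probe set (7.84 to 7.99 against 7.84 to 8.01) and are apart for the second (6.11 to 6.40 against 6.77 to 6.95). Which WEE1 transcripts the probe sets tell apart was not tested.

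The mitotic cyclins and their kinase showed no change that passed. CCNB1, encoding the cyclin that carries CDK1 into mitosis, was at 9.76, 9.78 and 9.63 on the irradiated arrays, against 9.69, 9.56 and 9.70 on the unirradiated arrays. Its groups overlapped, and its 95% interval ran from -0.090 to 0.24. CCNB2, the second B-type cyclin gene, differed by 0.082, and CCNF, whose product is a ubiquitin ligase receptor and activates no CDK, by 0.024 (adjusted p 0.478 and 0.839 in limma). CCNA2, the cyclin of S phase and early mitosis, averaged 10.30 ± 0.076 in irradiated cells and 10.16 ± 0.12 in unirradiated cells (mean ± SD, n = 3 each) and differed by 0.13 (interval -0.047 to 0.31). CDK1 was at 9.05, 9.05 and 9.35 on the irradiated arrays, against 8.99, 8.82 and 9.06 on the unirradiated arrays. The ranges of its groups overlapped slightly, and its difference of 0.19 had an interval from -0.032 to 0.42. PLK1, a kinase of mitotic entry and spindle formation, was at 12.39, 12.27 and 12.32 on the irradiated arrays, against 12.12, 12.05 and 12.20 on the unirradiated arrays. Its groups did not overlap, and its difference of 0.21 gave an adjusted p of 0.0853 in limma, which was 0.0113 with an intensity trend and robust prior, 0.0495 with the dimmest genes left out, and above 0.05 under the other 11 alternative settings.

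Of the later mitotic regulators, CKS2, CDKN3 and CDC20 rose. These 3 calls are 21.4% of the 14 G2/M regulators, beside 14.5% of all genes and 22.5% of the 8705 genes of like brightness. CKS2, which encodes a small CDK-binding subunit, was at 11.58, 11.40 and 11.32 on the irradiated arrays, against 11.22, 11.01 and 11.13 on the unirradiated arrays. It rose 1.24-fold (difference 0.31 ± 0.089 (SE), limma adjusted p 0.0426). CDKN3, encoding a phosphatase that removes the activating phosphate of CDKs, was at 8.03, 8.10 and 7.86 on the irradiated arrays, against 7.75, 7.70 and 7.75 on the unirradiated arrays. It rose by 0.26 (adjusted p 0.049). CDC20, the APC/C activator of anaphase, was at 10.70, 10.66 and 10.67 on the irradiated arrays, against 10.47, 10.37 and 10.47 on the unirradiated arrays. Irradiated arrays lay within 0.036 of one another and above the unirradiated arrays, and it rose by 0.24 (adjusted p 0.0371). These calls ended without any 1 array for CDC20 (up to 0.137), and without any 1 array except irradiated replicate 3 for CKS2 (up to 0.147) and CDKN3 (up to 0.144). FZR1, the activator that keeps the APC/C on through G1, differed by -0.092 (95% interval -0.25 to 0.061). All irradiated values of FZR1 lay just below the unirradiated ones.

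The promoters of these 3 mitotic genes are given because they rose together and all match the CHR, an element of genes expressed in G2 and mitosis that the DREAM complex, FOXM1 and MYBL2 use, and the CCAAT box. In GRCh38.p14 they lie at chr9:89310945-89311244, + strand (CKS2), chr14:54396757-54397056, + strand (CDKN3) and chr1:43358731-43359030, + strand (CDC20).
CKS2: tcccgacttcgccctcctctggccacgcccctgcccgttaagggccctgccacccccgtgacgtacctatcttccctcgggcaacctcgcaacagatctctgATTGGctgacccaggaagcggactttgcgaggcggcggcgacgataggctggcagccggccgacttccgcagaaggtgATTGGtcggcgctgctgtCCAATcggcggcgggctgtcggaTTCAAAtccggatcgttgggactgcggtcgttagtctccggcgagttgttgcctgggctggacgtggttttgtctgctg
CDKN3: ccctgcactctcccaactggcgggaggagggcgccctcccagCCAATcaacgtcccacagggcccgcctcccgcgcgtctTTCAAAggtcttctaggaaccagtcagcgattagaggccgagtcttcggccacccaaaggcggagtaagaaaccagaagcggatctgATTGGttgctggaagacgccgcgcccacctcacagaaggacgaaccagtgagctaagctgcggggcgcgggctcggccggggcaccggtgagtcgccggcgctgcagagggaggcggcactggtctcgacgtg
CDC20: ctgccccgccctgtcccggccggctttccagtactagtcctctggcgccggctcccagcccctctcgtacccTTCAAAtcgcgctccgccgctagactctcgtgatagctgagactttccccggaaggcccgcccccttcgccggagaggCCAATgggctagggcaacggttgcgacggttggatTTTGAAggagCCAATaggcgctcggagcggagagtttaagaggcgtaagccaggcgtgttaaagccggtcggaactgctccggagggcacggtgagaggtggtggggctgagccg
CHR letters were found in 8 of 12 G2/M promoters (CCNB2, CCNF, CDK1, CDKN3, PLK1, CDC20, FZR1 and CKS2) and in 3 of 20 G1/S promoters (RBL2, E2F3 and CKS1B), against 15.4% of all promoters. CCAAT letters were found in 9 of 12 and 7 of 20, against 35.7% of all. Among the 8 G2/M genes with CHR letters, 3 rose and 5 did not pass, so CHR letters stood in promoters of both kinds.

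CCNG2, an unconventional cyclin that is high in resting cells, is a FOXO target and is linked to cell cycle exit, belongs to neither transition and showed the largest difference of the 42. It was at 6.18, 6.19 and 6.39 on the irradiated arrays, against 6.90, 7.17 and 6.77 on the unirradiated arrays. The groups lay at least 0.38 apart, and it fell 1.62-fold, a log2 difference of -0.70 ± 0.11 (SE) (limma adjusted p 0.00274, and 0.000559 to 0.0128 over the alternative settings).

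**Figure D5:**
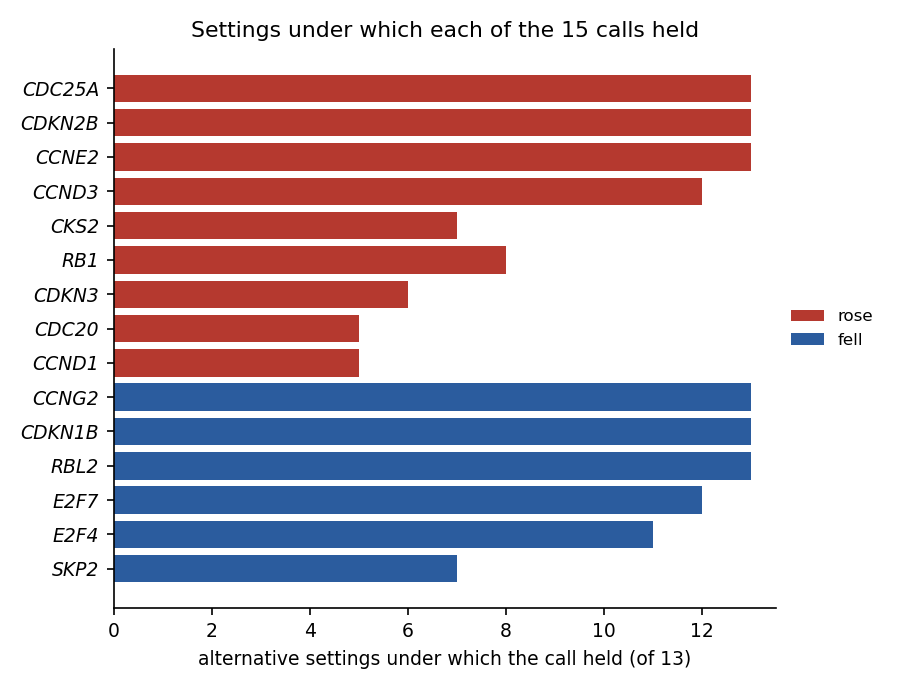
Number of the 13 alternative settings under which each of the 15 calls held (bar length), red for genes that rose and blue for genes that fell. Bars reach 13 for CDC25A, CDKN2B, CCNE2, CCNG2, CDKN1B and RBL2, and 5 for CDC20 and CCND1.

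Genes around these regulators were read from 4 further lists. Over all genes 14.5% passed, as did 22.5% of the 8705 genes within the brightness range of the regulators. Of 10 partners of E2F and of the MuvB complex, which switches cell cycle genes off in DREAM and on with MYBL2 and FOXM1, 0 passed in limma (median log2 difference 0.042). At an unadjusted p under 0.05, 2 of the 10 lay higher and 0 lower, beside 15.8% and 14% of all genes. MYBL2, MYBL1 and FOXM1, those with the smallest p, differed by 0.17, 0.16 and 0.15 (adjusted p 0.121, 0.15 and 0.175). Of 24 other cyclin, CDK and partner genes, CDKN1A among them, 3 rose and 4 fell (29.2%), with a median of 0.013. Those with the smallest p fell: CDK17, encoding a kinase of the PCTAIRE family (-0.85 ± 0.065 (SE)), CCNL1, encoding cyclin L1, which works with CDK11 in splicing (-1.12 ± 0.11 (SE)), and CDK10 (-0.53 ± 0.065 (SE)), all called under all 13 alternative settings. Of 24 SCF and APC/C genes, 1 rose and 2 fell (median -0.021), which at 12.5% is below the 14.5% of all genes. The APC/C subunit genes ANAPC16 and ANAPC15 fell by 0.56 and 0.44, and UBE2S, the enzyme that extends ubiquitin chains for the APC/C, rose by 0.32. Of 14 checkpoint and mitotic entry genes, 3 rose and 2 fell (35.7%, median 0.050). Only the 3 with the smallest p are named. BORA and AURKA, which together activate PLK1, rose by 0.31 and 0.32, and ENSA, an inhibitor of the phosphatase that opposes CDK1, fell by 0.33. The limma adjusted p was above 0.05 without some single arrays for UBE2S (irradiated replicates 1 and 2, unirradiated replicates 2 and 3, up to 0.118), AURKA (irradiated replicates 1 and 2, unirradiated replicates 1 and 2, up to 0.0964), BORA (irradiated replicate 1, unirradiated replicates 2 and 3, up to 0.0839) and ENSA (each except irradiated replicate 1, up to 0.0906).

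In unirradiated cells these genes were read from probe sets that were among the brighter ones. All 42 regulators lay above the median of all probe sets on every unirradiated array, and 30 above the upper quartile. That reference includes 12083 probe sets with no symbol, while each gene was read from its brightest probe set. The share of all genes above these limits was not counted. Over all 6 arrays the median level was 8.85 for the regulators and 6.44 for the 18417 genes tested. Unirradiated means ran from 6.49 for CDKN2B to 12.54 for CKS1B, and in irradiated cells from 6.25 for CCNG2 to 12.41 for CKS1B. Probe sets differ in brightness for the same amount of RNA and no detection calls were given, so these levels do not rank the genes.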

How the data were processed

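Gene expression was measured in 6 samples on 1-colour arrays, 3 per dose. The deposited table holds 33297 probe set values per array, which the authors' file gives on a log scale read here as log2, the base being inferred from values of about 2 to 14. Background correction, summarisation and normalization before deposit are not given in the sources used, and the number of arrays limits the precision. By the platform annotation 19460 probe sets had 1 symbol, 1754 had several and 12083 had none listed; 19429 matched RefSeq (GRCh38.p14) by Entrez ID. One probe set per gene, the brightest over all 6 arrays, left 18417 genes.

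Irradiated and unirradiated arrays were compared with limma 3.58.1 (lmFit, eBayes; R 4.3.3), two-sided, with no covariate or filter, 4 residual and 5.85 prior degrees of freedom, and Benjamini-Hochberg adjustment over all genes at 0.05. Standard errors and 95% intervals are limma's, and intervals are not adjusted. The fit was tested on simulated data. Exact permutation of 3 arrays against 3 cannot give a p under 0.1, so none was run. Tables were made in Python 3.11.15 (numpy 2.4.6, pandas 2.3.3) and figures in matplotlib 3.10.9. The members, their phase classes and all lists were chosen with earlier results of these data known. All 43 members are named, the 3 genes of smallest p of each further list, CDKN1A and CCND2; SLAMF7, CD38, XBP1, ITGAM, COL1A1, EPCAM and KRT18 were named after their values were seen.

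Alternatives were a replicate block by sample number, leaving out each array, leaving out the dimmest genes (1 in 3), quantile normalization, array medians subtracted, an intensity trend with a robust prior, the mean of all probe sets, array weights, and a stricter phase assignment.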

Additional observations from a re-analysis of the deposited data

How the results depend on the processing

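Among values of the 42 regulators under 13 alternatives, 473 of 546 kept their direction and side of the threshold, 44 lost the call, 10 gained it and 19 changed sign, each of these 19 in a gene that did not pass. A replicate block by sample number gave 6 regulators that rose and 5 that fell, with 1 G2/M gene that rose. Deviations of same-numbered arrays from their group means correlated at -0.042, 0.10 and -0.11, and those of differently numbered arrays at -0.11 to 0.15. No pairing by number was seen, but 3 arrays per group cannot exclude it. Leaving out 1 array gave 3 to 7 that rose and 3 to 7 that fell, 3 to 5 and 2 to 6 in G1/S, and 0 to 2 that rose in G2/M, with medians of -0.0295 to 0.016 in G1/S and 0.0732 to 0.1145 in G2/M. With array medians subtracted, 5 rose, 0 of them in G2/M, and medians were -0.0278 and 0.0525; quantile normalization gave 0.0261 and 0.11, and array weights -0.0198 in G1/S. With the mean of all probe sets, 1 G2/M gene (WEE1) fell. Signs changed for CCNE1 (0.0292), CDK4 (-0.0005), WEE1 (0.0221) and E2F3 (0.0229) under quantile normalization, for CCNF (-0.0058), CDK4 (-0.0163) and CDKN2A (-0.0229) with array medians subtracted, and for CDKN2A (-0.0135) with array weights. With 1 array left out, values ran from -0.1035 to 0.1008 for CCNE1, -0.012 to 0.0494 for CCNF, -0.0004 to 0.0337 for CDK4, -0.0009 to 0.0611 for CDK6, -0.0413 to 0.0571 for CDKN2A, -0.1104 to 0.0063 for E2F1, -0.1143 to 0.005 for E2F3 and -0.0378 to 0.1059 for E2F5. With genes of more than one phase put in neither class, 5 G1/S genes rose and 4 fell, and 3 G2/M genes rose. Over all genes 2676 passed, against 1471 to 2184 with 1 array left out and 1919 with the block. The causes were not tested. Signal over background is unknown, which limits dim genes such as CCNG2 and CDKN2B.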

Other observations

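Some members of one family differed in their shifts, which the difference of 2 related genes within an array shows. These pairs were picked after their values were seen and carry no test, and since probe sets differ in brightness the shift between groups is the part that can be read. RB1 minus RBL2, the log2 difference of a pair of pocket protein genes, was 1.99 ± 0.081 on the irradiated arrays and 1.24 ± 0.077 on the unirradiated arrays (mean ± SD, n = 3 each), a shift of 0.75. CDC25A minus CDC25C, phosphatases of the early and late cycle, was 1.50 ± 0.027 on the irradiated arrays and 0.86 ± 0.16 on the unirradiated arrays, a shift of 0.64. The shift was 0.50 for CDC25A minus CDC25B, 0.44 for CKS2 minus CKS1B, 0.42 for CDKN2B minus CDKN2A, 0.42 for CCNE2 minus CCNE1 and 0.20 for CCND3 minus CCND2. Since pairs with unlike shifts were picked, it is no further result that irradiated values lay above unirradiated values in each of them.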
